A study of Homo sapiens with 28 samples.

Results

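The genes described here are 10 that shape the space around a cell: 5 matrix metalloproteinases (MMP1, MMP7, MMP10, MMP13 and MMP14), the 3 tissue inhibitors TIMP1, TIMP2 and TIMP3, the urokinase plasminogen activator PLAU and its receptor PLAUR. They were taken by symbol from 2 RNA-Seq tables of 19662 genes each, and they had been chosen by their response to ONECUT2 and to hypoxia in these same libraries. Their levels and fold changes are therefore a description. They entered the fits over all genes, and the counts of members past a limit in those fits are given as a description too, not as evidence. The study asked what the transcription factor ONECUT2 does in the hypoxia response of prostate cancer cells. It covered 28 samples, of which the 16 RNA-Seq libraries were used and 12 ChIP-Seq samples were not analysed here.

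Matrix metalloproteinases are zinc enzymes, made as inactive proforms, that cut collagens, laminins and other matrix proteins. The TIMP proteins block them in their active site, and TIMP2 also takes part in the activation of MMP2 by the membrane-bound MMP14. Urokinase, held at the cell surface by its receptor, turns plasminogen into plasmin, which digests fibrin and can activate several MMP proforms. In carcinomas this system is known for its part in invasion, and many of its genes are controlled by the AP-1 and ETS transcription factors.

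PC3 and LNCaP are established prostate cancer cell lines. PC3 cells received a control siRNA (siCtrl) or an siRNA against ONECUT2 (siOC2). LNCaP cells carried an empty vector or one for Flag-tagged ONECUT2 (Flag-OC2), for which the study's methods describe a lentiviral construct with a CMV promoter. Each was kept in normoxia or in a chamber at 0.2% oxygen, which gave 4 groups of 2 libraries in each line. The siOC2 groups hold 1 library of siRNA1 and 1 of siRNA2, so their spread includes the difference between both siRNAs. No label states that the libraries of a group came from separate cultures, so p-values measure only the spread between these libraries. In bulk RNA, fewer cells of a type and less RNA per cell cannot be told apart.

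ONECUT2 was at 1.77 and 1.16 RPKM (reads scaled to transcript length and library size) in the siCtrl libraries in normoxia and at 0.276 and 0.204 RPKM with siOC2. In hypoxia it was at 0.648 and 0.55 RPKM with siCtrl and at 0.126 and 0.214 RPKM with siOC2. In LNCaP with empty vector it was at 2.89 and 7.86 RPKM in normoxia and at 11.5 and 3.09 RPKM in hypoxia. The Flag-OC2 libraries have no ONECUT2 value, so the overexpression could not be checked in these RNA values. The study reports an ONECUT2 western blot for its LNCaP overexpression. All 7 LNCaP markers were at 1 RPKM or more in every LNCaP library, and all 7 PC3 markers in every PC3 library. So were 4 of the 7 PC3 markers in every LNCaP library and 2 of the 7 LNCaP markers in every PC3 library. The PC3 markers EPCAM and KRT18, named here outside the rule for named genes, were listed higher in LNCaP. EPCAM was at 110 to 149 RPKM there and 3.70 to 19.05 RPKM in PC3, and KRT18 at 129 to 180 and 14.2 to 19.8 RPKM. The summed endothelial markers reached at most 1.18 RPKM in PC3 and 2.86 RPKM in LNCaP, and those of fibroblasts at most 8.25 and 26.3 RPKM. Leukocyte markers summed to 25.86 to 57.8 RPKM in PC3 and 21.2 to 37.4 RPKM in LNCaP, with 1 of 6 reaching 1 RPKM. That marker was CD68, named here outside the rule for named genes, at 25.86 to 57.2 RPKM in PC3 and 21.1 to 36.5 RPKM in LNCaP. The part of the markers of other cell types in the results was not tested. Relative depth, read from the steps between low RPKM, was 0.348 to 0.418 in 3 PC3 libraries (siCtrl in normoxia replicate 1, siCtrl in hypoxia replicate 2 and siRNA1 in hypoxia) and 0.877 to 1.15 in the other 5. In LNCaP it was 0.548 to 1. Values are deposited RPKM, and fold changes are on the log2(RPKM + 0.1) scale with their standard error (SE) from limma. This scale understates the change of genes near 0.

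The 4 proteases MMP1, MMP7, MMP10 and MMP13 lie on chromosome 11 on the minus strand. On GRCh37, MMP7 spans 102391239 to 102401481, MMP10 102641233 to 102651359, MMP1 102660132 to 102668891 and MMP13 102813724 to 102826461. MMP14 lies on chromosome 14 at 23305769 to 23318250, on the plus strand. TIMP1 lies on chromosome X at 47441807 to 47446188, TIMP2 on chromosome 17 at 76849059 to 76921469 and TIMP3 on chromosome 22 at 33197691 to 33259028. PLAU lies on chromosome 10 at 75668935 to 75677254 and PLAUR on chromosome 19 at 44150247 to 44174699. TIMP1 lies inside SYN1 and TIMP3 inside SYN3, each on the other strand and without shared exons. Exons of PLAU overlap C10orf55, and exons of MMP1 overlap the pseudogene WTAPP1, on the other strand. Whether the authors' counting used strand is not given in the sources used here, so reads of PLAU and C10orf55 may be split between both.

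The sequences before the start sites of 4 members are shown because these genes had the widest spread in a cell line (MMP10 in PC3, TIMP3 in LNCaP), lay lower with both ONECUT2 siRNAs (MMP14) or lay lower in hypoxic LNCaP control cells (MMP7). Each is the 250 bases before the start in the RefSeq promoter table, which is on GRCh38.p14, and the GRCh37 place is that of its single exact match. Capitals mark any searched motif on either strand.
MMP10, GRCh37 chr11:102651360-102651609, minus strand: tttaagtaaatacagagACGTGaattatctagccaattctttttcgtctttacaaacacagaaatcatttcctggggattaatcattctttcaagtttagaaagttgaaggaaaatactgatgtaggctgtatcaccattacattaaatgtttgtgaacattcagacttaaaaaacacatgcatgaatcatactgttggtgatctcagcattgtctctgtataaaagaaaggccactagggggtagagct
TIMP3, GRCh37 chr22:33197441-33197690, plus strand: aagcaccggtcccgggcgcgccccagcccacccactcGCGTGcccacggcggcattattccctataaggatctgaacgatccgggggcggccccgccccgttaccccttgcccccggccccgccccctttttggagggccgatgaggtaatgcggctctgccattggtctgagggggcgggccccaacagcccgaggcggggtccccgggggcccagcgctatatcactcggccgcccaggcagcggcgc
MMP14, GRCh37 chr14:23305544-23305793, plus strand: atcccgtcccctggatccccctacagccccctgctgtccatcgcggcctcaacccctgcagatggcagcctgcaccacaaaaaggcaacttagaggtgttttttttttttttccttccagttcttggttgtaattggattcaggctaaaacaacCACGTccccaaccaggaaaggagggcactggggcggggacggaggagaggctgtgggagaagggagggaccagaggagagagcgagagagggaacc
MMP7, GRCh37 chr11:102401479-102401728, minus strand: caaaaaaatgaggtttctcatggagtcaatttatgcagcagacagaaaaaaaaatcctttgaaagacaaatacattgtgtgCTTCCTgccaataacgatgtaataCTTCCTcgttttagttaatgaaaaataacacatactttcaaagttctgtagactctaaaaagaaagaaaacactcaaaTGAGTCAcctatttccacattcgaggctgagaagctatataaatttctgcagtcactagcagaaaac

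The motifs searched, in 250 bases before to 50 after the start and on both strands, were TGACTCA (AP-1), ACGTG and GCGTG (the core of the HIF element), ATTGAT (the ONECUT core) and AGGAAG (ETS). The table held a promoter for 7 of the 10 members. MMP7 and PLAUR held TGACTCA, read on the other strand as TGAGTCA, which stood in 4.95% of all 35116 promoters. In MMP7 it lay at -67 to -61 from the start. ACGTG stood in MMP10, MMP14, PLAUR and TIMP1 (21.4% of all promoters), at -233 to -229 in MMP10. GCGTG stood in PLAU, PLAUR, TIMP1 and TIMP3 (36.5%), at -213 to -209 in TIMP3. AGGAAG stood in MMP7, PLAU, PLAUR and TIMP1 (33.6%). ATTGAT stood in none of the 7 and in 6.26% of all promoters, which says only that these letters are not in these windows. The promoters of MMP7 and MMP10 were AT-rich, with a GC content of 33.6% and 34.4% against a median of 58% over all promoters, whereas that of TIMP3 had 72.4%.

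The levels of the members in control cells differed by orders of magnitude. In PC3 siCtrl cells in normoxia, TIMP1 was the highest member with a mean of 1700 ± 150 RPKM (SD, n = 2), followed by PLAU at 198 ± 20.7 RPKM. MMP14 at 51.75 ± 5.055 RPKM and PLAUR at 50.6 ± 6.19 RPKM lay within their spread of each other, as did TIMP2 at 12.4 ± 2.29 and TIMP3 at 11.1 ± 1.34 RPKM. The 4 secreted proteases on chromosome 11 were nearly silent there, with MMP1 at 0.13 ± 0.00572 RPKM, MMP13 at 0.0876 ± 0.0236 RPKM, and MMP7 and MMP10 at 0.0343 and 0.0328 RPKM, each listed at 0 in 1 of the 2 libraries. In LNCaP cells with empty vector in normoxia, TIMP2 was the highest member at 11.8 ± 0.754 RPKM. PLAUR followed at 1.31 ± 0.406 RPKM, MMP13 at 1.01 ± 0.14 RPKM and MMP7 at 0.967 ± 0.07945 RPKM, within their spread of each other. MMP10 was at 0.536 ± 0.249 RPKM, MMP14 at 0.101 ± 0.024 RPKM, TIMP3 at 0.0827 ± 0.0337 RPKM and TIMP1 at 0.0377 ± 0.0193 RPKM. MMP1 and PLAU were each listed at 0 in 1 of the 2 libraries, with means of 0.0113 and 0.00942 RPKM. The plot of both control groups shows that 6 of the members (MMP1, MMP14, TIMP1, TIMP3, PLAU and PLAUR) were listed higher in PC3, and that MMP13, MMP10 and MMP7 were listed higher in LNCaP. Cell line, table and treatment cannot be told apart in that contrast, and no test was made.

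**Figure D1:**
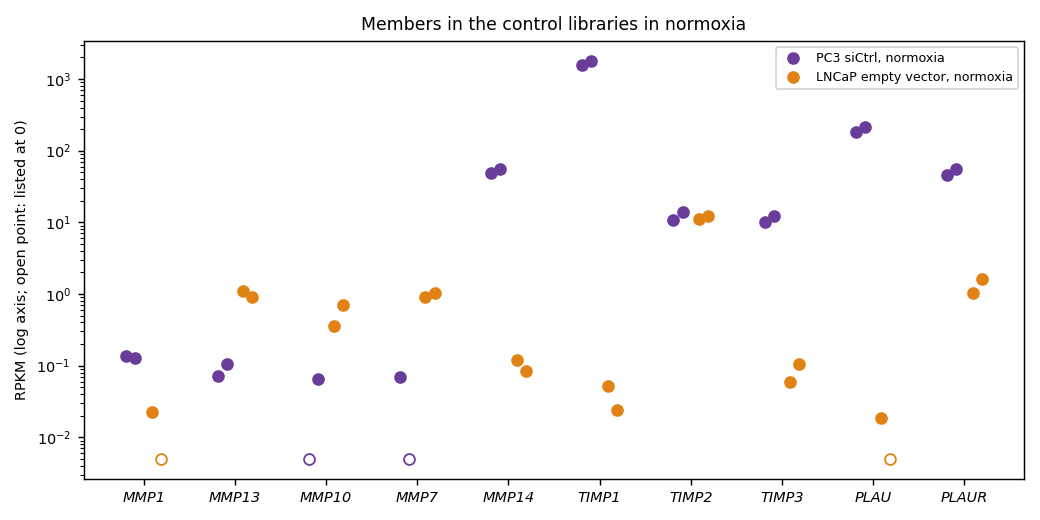
RPKM of the 10 members (log axis) in the 2 control libraries of each line in normoxia, PC3 with siCtrl in purple and LNCaP with empty vector in orange, with 1 point per library and open points for values listed at 0. TIMP2 is listed at a similar RPKM in both, 12.4 in PC3 and 11.8 in LNCaP, whereas TIMP1 is at 1700 and 0.0377 RPKM. The tables of the lines differ in scale.

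Knockdown of ONECUT2 in PC3 cells came with higher transcript levels of the interstitial collagenases MMP1 and MMP13 and of the stromelysin MMP10, all from near 0, and with lower levels of MMP14. Both siRNAs lay on the same side of both controls for TIMP3 and PLAU in normoxia and for PLAUR in hypoxia. For TIMP2 they lay on opposite sides of the controls in hypoxia, whereas in normoxia siRNA1 lay between the controls and siRNA2 above them. Calls required more than a 2-fold difference together with P under 0.05, unadjusted, in limma. In normoxia 3 of the 9 members tested were called higher (MMP1, MMP10 and MMP13), beside 3.62% of all 12214 genes, and 0 were called lower, beside 1.59%. At an adjusted p under 0.05 (limma, Benjamini-Hochberg), 0 members and 1 gene of all (0.00819%) were called. An unadjusted P under 0.05 was reached by 3 of the 9 members, beside 1124 of all 12214 genes. In hypoxia 2 members were called higher (MMP1 and MMP13), beside 3.55% of all genes, and 0 lower, beside 3.95%. There, 0 members and 0.0901% of all genes had an adjusted p under 0.05 in limma. An unadjusted P under 0.05 was reached by 3 members, beside 1482 of all 12214 genes. The libraries with siOC2 and siCtrl did not overlap for 6 of the 9 members in normoxia, beside 46.4% of all genes, and for 5 in hypoxia, beside 38.4%. Since the members were chosen on these contrasts, nothing is read from the counts. MMP1, MMP10 and MMP13 passed the filter of 1 RPKM in 2 libraries only through the siOC2 groups in which they were high, and MMP7 did not pass it.

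MMP1, the interstitial collagenase that opens the triple helix of fibrillar collagen, was at 0.1345 and 0.126 RPKM with siCtrl in normoxia and at 0.968 (siRNA1) and 2.305 RPKM (siRNA2) with siOC2. Under hypoxia it was at 0.275 and 0.0735 RPKM with siCtrl and at 1.82 and 2.47 RPKM with siOC2. All 4 siOC2 libraries lay above all 4 siCtrl libraries. The log2 fold change was 2.80 ± 0.69 (SE) in normoxia and 3.12 ± 0.69 in hypoxia, and each siRNA showed it at both oxygen levels, with log2 differences from the siCtrl mean between 2.21 and 3.38. With a pseudocount of 1 the fold changes were 1.17 and 1.42, still called.

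MMP13, a collagenase with a preference for type II collagen, was at 0.0709 and 0.104 RPKM with siCtrl in normoxia and at 0.837 and 1.34 RPKM with siOC2. The hypoxic libraries had it at 0.505 and 0.274 RPKM with siCtrl, 6.43 RPKM with siRNA1 and 0.83 RPKM with siRNA2. The groups did not overlap at either oxygen level, but 1 shallow library held most of the hypoxic difference. Its log2 fold change was 2.63 ± 0.91 in normoxia and 2.37 ± 0.91 in hypoxia. Without the siRNA1 library in hypoxia, the latter was 0.97 and no longer called. The call was also lost in hypoxia without siCtrl replicate 1 (2.72 ± 1.21) or 2 (2.03 ± 1.19), and in normoxia without siCtrl replicate 1 (2.50 ± 1.18) or the siRNA2 library (2.33 ± 1.19). A pseudocount of 1 gave 0.93 ± 0.55 in normoxia, which was not called, and 1.41 ± 0.55 in hypoxia.

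MMP10, a stromelysin that cuts proteoglycans, laminin and the proforms of other MMPs, was at 0 and 0.0656 RPKM with siCtrl in normoxia and at 1.71 and 2.065 RPKM with siOC2. In hypoxia it was at 0.1315 and 0.209 RPKM with siCtrl, 0.2295 RPKM with siRNA1 and 1.625 RPKM with siRNA2. The siRNA1 library in hypoxia was thus close to its controls, whereas the other 3 siOC2 libraries were far above theirs. The log2 fold change was 3.94 ± 0.92 in normoxia, where a pseudocount of 1 gave 1.48, and 1.5 ± 0.92 in hypoxia. Without the siRNA1 library in hypoxia, the latter was 2.69 and called, and without the siRNA2 library it was 0.30. MMP10 and its near paralog MMP3, named here outside the rule for named genes, lie on the same chromosome arm, and reads shared between them are uncertain. MMP3 reached at most 0.267 RPKM in the PC3 libraries. MMP7, the small matrilysin, was at 0 to 0.0775 RPKM in the 8 PC3 libraries, which is at most 1 step of the size of a single read in each.

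MMP14, the membrane-bound activator of MMP2, was at 48.2 and 55.3 RPKM with siCtrl in normoxia and at 46.4 and 25.4 RPKM with siOC2. Under hypoxia it was at 59.9 and 62.1 RPKM with siCtrl and at 37.4 and 28.6 RPKM with siOC2. Every siOC2 library lay below both controls of its oxygen level, with log2 differences from -1.09 to -0.155, and siRNA2 was the lower one each time. Its log2 fold change was -0.59 ± 0.33 in normoxia and -0.90 ± 0.33 in hypoxia, neither of which reached a fold of 2. Without a siRNA1 library it was -1.02 in normoxia and -1.09 in hypoxia, past the limits of a call, since siRNA2 then stood alone.

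TIMP1, the soluble inhibitor of most secreted MMPs, was at 1594 and 1806 RPKM with siCtrl in normoxia, 2849 RPKM with siRNA1 and 1493 RPKM with siRNA2. The hypoxic libraries had it at 2444 and 2014 RPKM with siCtrl and at 2028 and 1628 RPKM with siOC2. The groups overlapped at both oxygen levels, and the log2 fold changes of 0.28 ± 0.31 and -0.29 ± 0.31 were within 1 SE of 0.

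TIMP2 was split by siRNA. In normoxia it was at 10.8 and 14.04 RPKM with siCtrl, 11.4 RPKM with siRNA1 and 26.8 RPKM with siRNA2, and in hypoxia at 15.4 and 12.2, 7.69 and 29.9 RPKM. The siRNA2 libraries lay 1.12 above the siCtrl mean on the log2 scale at both oxygen levels, and the siRNA1 libraries lay at -0.11 and -0.83. The fitted log2 fold changes of 0.50 ± 0.63 and 0.14 ± 0.63 are means of these unlike values.

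TIMP3, the inhibitor that binds to the matrix itself, was at 10.2 and 12.1 RPKM with siCtrl in normoxia and at 5.18 and 4.795 RPKM with siOC2. In hypoxia it was at 11.6 and 6.35 RPKM with siCtrl, 18.8 RPKM with siRNA1 and 4.39 RPKM with siRNA2. Both siRNAs were thus below the controls in normoxia, and in hypoxia they lay on either side of them. The log2 fold change was -1.14 ± 0.61 in normoxia and 0.08 ± 0.61 in hypoxia. In hypoxia it was -0.95 without the siRNA1 library and 1.12, past the limits of a call, without the siRNA2 library. SYN3, the gene around TIMP3, was at 0 in all siCtrl libraries and at 0.0244 to 0.603 RPKM with siOC2.

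PLAU was at 183.5 and 213 RPKM with siCtrl in normoxia and at 241 and 297 RPKM with siOC2. Under hypoxia it was at 208 and 207 RPKM with siCtrl, 85.4 RPKM with siRNA1 and 224 RPKM with siRNA2. The groups did not overlap in normoxia, and in hypoxia only the shallow siRNA1 library was low. Its log2 fold change was 0.44 ± 0.41 in normoxia and -0.58 ± 0.41 in hypoxia, where it was 0.11 without the siRNA1 library and -1.28, past the limits of a call, without the siRNA2 library. C10orf55, which overlaps PLAU, was at 2.13 RPKM in the same library and at 8.55 to 12.1 RPKM in the other 7.

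PLAUR was at 46.2 and 54.9 RPKM with siCtrl in normoxia, 74.05 RPKM with siRNA1 and 26.9 RPKM with siRNA2. The hypoxic libraries had it at 74.0 and 81.7 RPKM with siCtrl and at 47.55 and 33.6 RPKM with siOC2. In hypoxia both siOC2 libraries lay below both controls, with a log2 fold change of -0.96 ± 0.44. In normoxia the siRNAs lay on either side of the controls, with log2 differences of 0.555 and -0.90 and a fold change of -0.17 ± 0.44.

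**Figure D2:**
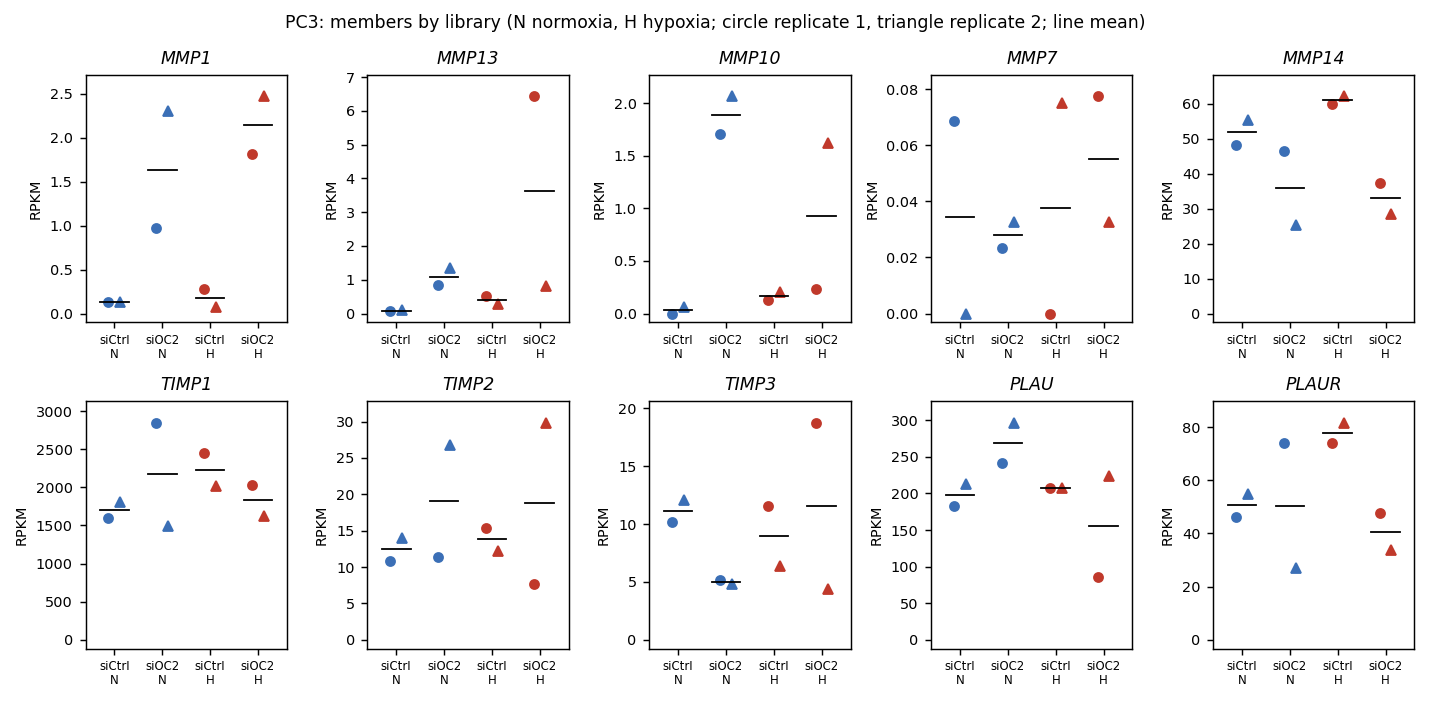
RPKM of each member in the 8 PC3 libraries (linear axes from 0), blue in normoxia (N) and red in hypoxia (H), with circles for replicate 1 or siRNA1, triangles for replicate 2 or siRNA2 and a line at the mean of 2. MMP1, MMP13 and MMP10 sit near 0 with siCtrl, at most 0.505 RPKM, and MMP14 is lower in every siOC2 library than in its controls.

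**Figure D3:**
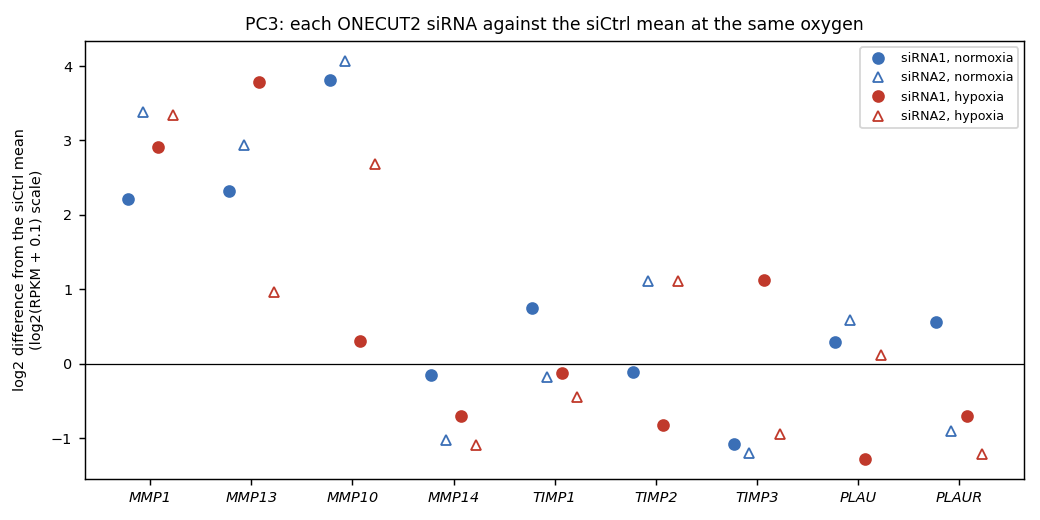
Log2 difference of each siOC2 library from the mean of the 2 siCtrl libraries at the same oxygen level, on the log2(RPKM + 0.1) scale, with filled circles for siRNA1, open triangles for siRNA2, blue for normoxia and red for hypoxia. MMP1 lies between 2.21 and 3.38 for all 4 libraries, and TIMP2 is at 1.12 for both siRNA2 libraries and below 0 for both siRNA1 libraries.

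The siRNA1 library in hypoxia, which set the MMP13, TIMP3 and PLAU values, was also the shallowest of the 8, and the median over all genes in it lay at -0.28 from the siCtrl mean on the log2 scale. The median was 0.23 for siRNA2 in hypoxia and 0.13 and 0.14 for siRNA1 and siRNA2 in normoxia. The part of depth in these values was not tested.

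Hypoxia in siCtrl PC3 cells came with somewhat higher listed levels of PLAUR, MMP14 and TIMP1, none of them past the limits of a call. Of the 9 members tested, 0 were called higher, beside 2.23% of all genes, and 0 lower, beside 1.63%. No member had an unadjusted P under 0.05 (0 of 9, limma), beside 901 of all 12214 genes, and 0 had an adjusted p under 0.05, beside 0.27%. PLAUR went from 46.2 and 54.9 to 74.0 and 81.7 RPKM, a log2 fold change of 0.63 ± 0.44. MMP14 went from 48.2 and 55.3 to 59.9 and 62.1 RPKM (0.24 ± 0.33) and TIMP1 from 1594 and 1806 to 2444 and 2014 RPKM (0.39 ± 0.31). MMP13, still under 1 RPKM, had the widest log2 fold change with 1.35 ± 0.91, which passed the limits in a fit to these 2 groups alone. The groups did not overlap for 5 members (MMP10, MMP13, MMP14, TIMP1 and PLAUR), beside 55% of all genes, and each of these 5 was higher in hypoxia. MMP1, TIMP2, TIMP3 and PLAU had log2 fold changes between -0.37 and 0.16.

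In siOC2 cells the log2 fold change from normoxia to hypoxia was -0.95 ± 0.41 for PLAU, -0.16 ± 0.44 for PLAUR, -0.07 ± 0.33 for MMP14 and -1.39 ± 0.92 for MMP10. The test of the difference, the interaction of siOC2 and hypoxia, called 0 of 9 members in either direction, beside 0.246% of all genes higher and 0.696% lower. The interaction was -2.45 ± 1.30 for MMP10, 1.22 ± 0.86 for TIMP3, -1.02 ± 0.58 for PLAU and -0.79 ± 0.63 for PLAUR. Without the siRNA2 library in hypoxia, 3 members passed the limits, MMP10 at -3.64, PLAU at -1.71 and TIMP3 at 2.26. Without the siRNA2 library in normoxia, PLAUR at -1.51 and TIMP1 at -1.04 did. With siRNA identity as a block within the siOC2 libraries, an alternative chosen after seeing the data, the same values had a smaller spread, and 3 members (MMP10, PLAU and TIMP3) passed the limits. No gene of 12214 reached an adjusted p under 0.05 in limma (0%), with 126 at an unadjusted P under 0.05, none of them a member.

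Overexpression of ONECUT2 in LNCaP cells came with higher levels of the inhibitors TIMP2 and TIMP3, at both oxygen levels. Only TIMP2, TIMP3 and PLAUR passed the filter in LNCaP, TIMP3 only through the Flag-OC2 group in hypoxia in which it was high. In normoxia 2 of these 3 were called higher (TIMP2 and TIMP3), beside 2.81% of all 12283 genes, and 0 lower, beside 0.48%. In hypoxia 1 was called higher (TIMP3), beside 3.7%, and 0 lower, beside 0.773%. At an adjusted p under 0.05 in limma 2 of the 3 were called at each oxygen level, beside 5.26% of all genes in normoxia and 11.5% in hypoxia. The groups did not overlap for 2 of the 3 in normoxia, beside 49.4% of all genes, and for all 3 in hypoxia, beside 66.4%. As above, the counts are a description.

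TIMP2 was at 11.3 and 12.35 RPKM with empty vector in normoxia and at 24.3 and 23.2 RPKM with Flag-OC2. In hypoxia it was at 15.8 and 13.8 RPKM with empty vector and at 31.3 and 25.7 RPKM with Flag-OC2. Every Flag-OC2 library lay above every empty vector library. The log2 fold change was 1.00 ± 0.13 in normoxia and 0.94 ± 0.13 in hypoxia, just over and just under the fold of 2 that a call requires. In normoxia it was 0.94 without empty vector replicate 1 and 0.97 without Flag-OC2 replicate 1, and in hypoxia it was 1.03 without empty vector replicate 1 and 1.08 without Flag-OC2 replicate 2.

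TIMP3 was at 0.0589 and 0.106 RPKM with empty vector in normoxia and at 0.612 and 0.637 RPKM with Flag-OC2. Under hypoxia it was at 0.0984 and 0.108 RPKM with empty vector and at 1.89 and 1.36 RPKM with Flag-OC2. Near silent with empty vector, TIMP3 was thus above it in all 4 Flag-OC2 libraries, and higher in hypoxia than in normoxia among these. Its log2 fold change was 2.00 ± 0.34 in normoxia and 3.07 ± 0.34 in hypoxia. With a pseudocount of 1 these were 0.59 and 1.24. TIMP1, the inhibitor at the top of the PC3 levels, stayed at or under 0.233 RPKM in all 8 LNCaP libraries, with 0.0513 and 0.0241 RPKM for empty vector and 0.233 and 0.207 RPKM for Flag-OC2 in normoxia.

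PLAUR was at 1.025 and 1.60 RPKM with empty vector in normoxia and at 2.19 and 1.38 RPKM with Flag-OC2, and in hypoxia at 2.38 and 2.27 and at 2.56 and 2.68 RPKM. The groups overlapped in normoxia, and in hypoxia both Flag-OC2 libraries lay just above both controls. The log2 fold change was 0.41 ± 0.27 and 0.17 ± 0.27. PLAU, its ligand, was listed at 0 in 6 of the 8 LNCaP libraries and reached at most 0.0188 RPKM, the size of 2 reads.

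The proteases reached at most 1.11 RPKM in LNCaP. MMP7 was at 0.911 and 1.02 RPKM with empty vector in normoxia and at 0.983 and 0.943 RPKM with Flag-OC2. The hypoxic libraries had it at 0.2625 and 0.335 RPKM with empty vector and at 0.622 and 0.789 RPKM with Flag-OC2. It was thus lowest in the hypoxic empty vector cells, and the Flag-OC2 libraries in hypoxia lay between these and the normoxic cells. In the fit without the filter, its log2 fold change from normoxia to hypoxia with empty vector was -1.42 ± 0.20, and that of Flag-OC2 in hypoxia was 1.01 ± 0.20.

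MMP14 was at 0.118 and 0.0842 RPKM with empty vector in normoxia and at 0.561 and 0.311 RPKM with Flag-OC2, and in hypoxia at 0.332 and 0.1935 and at 0.186 and 0.242 RPKM. Without the filter its log2 fold change with Flag-OC2 was 1.38 ± 0.31 in normoxia and -0.19 ± 0.31 in hypoxia. MMP10 was at 0.3595 to 0.879 RPKM and MMP13 at 0.633 to 1.11 RPKM over the 8 libraries. MMP10 was highest with Flag-OC2 in hypoxia (0.879 and 0.744 RPKM), above the 0.382 and 0.476 RPKM of its controls. MMP1 was at 0.0226 and 0 RPKM with empty vector in normoxia and at 0.127 and 0.122 RPKM with Flag-OC2 in hypoxia, the size of 2, 0, 12 and 8 reads.

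**Figure D4:**
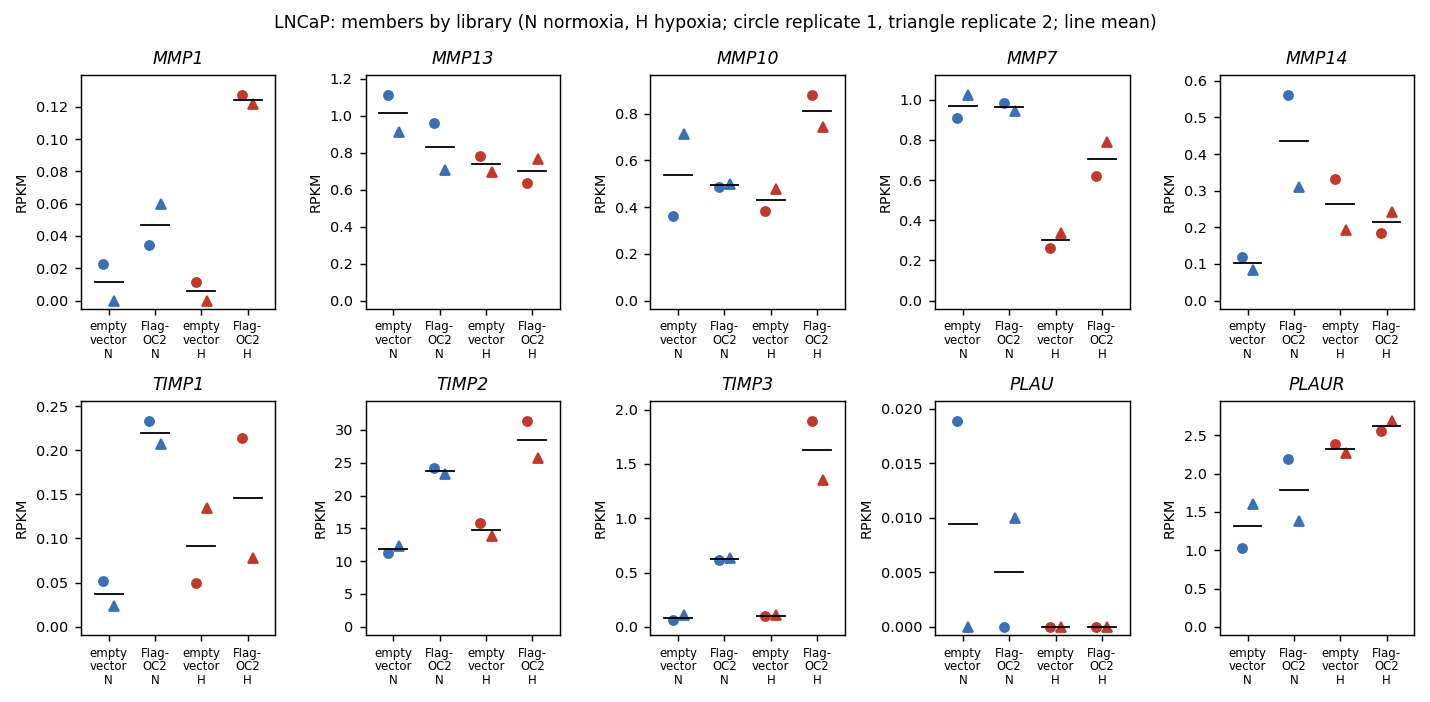
RPKM of each member in the 8 LNCaP libraries (linear axes from 0), blue in normoxia (N) and red in hypoxia (H), with circles for replicate 1, triangles for replicate 2 and a line at the mean of 2. TIMP2 and TIMP3 are higher in every Flag-OC2 library than in its controls, and MMP7 is lowest with empty vector in hypoxia, at 0.2625 and 0.335 RPKM.

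Hypoxia in LNCaP cells with empty vector called 0 of the 3 members higher, beside 5.6% of all genes, and 0 lower, beside 2.34%. In limma, 2 members had an unadjusted P under 0.05, beside 5459 of all 12283 genes, and 0 an adjusted p under 0.05, beside 32.3%. PLAUR had a log2 fold change of 0.81 ± 0.27 (1.11 and past the limits without empty vector replicate 2 in normoxia), TIMP2 of 0.32 ± 0.13 and TIMP3 of 0.17 ± 0.34. The groups did not overlap for TIMP2 and PLAUR, beside 69.4% of all genes. In Flag-OC2 cells the log2 fold change with hypoxia was 1.23 ± 0.34 for TIMP3, 0.26 ± 0.13 for TIMP2 and 0.56 ± 0.27 for PLAUR. The interaction called 0 of 3 members, beside 2.34% of all genes higher and 1.35% lower. In limma, 0 members and 2072 of all 12283 genes had an unadjusted P under 0.05, and 0.244% of all genes an adjusted p under 0.05. No member was among the latter. The interaction was 1.07 ± 0.48 for TIMP3, -0.07 ± 0.19 for TIMP2 and -0.25 ± 0.38 for PLAUR.

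**Figure D5:**
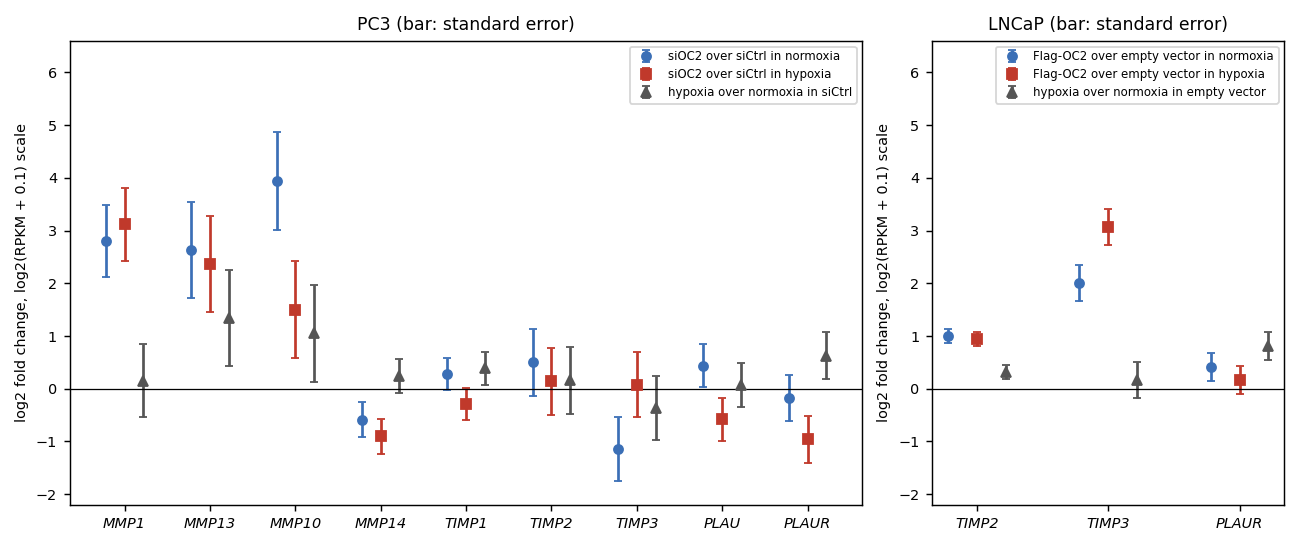
Log2 fold change with its standard error (bars) on the log2(RPKM + 0.1) scale, for the 9 members tested in PC3 (left) and the 3 in LNCaP (right), with blue circles for the ONECUT2 contrast in normoxia, red squares for it in hypoxia and grey triangles for hypoxia in the control cells. The widest values are those of MMP10 in PC3 in normoxia, 3.94 ± 0.92, and of TIMP3 in LNCaP in hypoxia, 3.07 ± 0.34.

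The same genes can be set side by side for loss and gain of ONECUT2. TIMP3 lay lower with siOC2 in normoxic PC3 cells (-1.14 ± 0.61) and higher with Flag-OC2 in normoxic LNCaP cells (2.00 ± 0.34), at levels of 4.795 to 12.1 RPKM in PC3 and 0.0589 to 0.637 RPKM in LNCaP. The PC3 value was not called, and in hypoxia TIMP3 was at 0.08 ± 0.61 in PC3, with siRNA1 at 1.12 and siRNA2 at -0.95, and at 3.07 ± 0.34 in LNCaP. TIMP2 lay higher with Flag-OC2 and had no common direction with siOC2. MMP1 lay higher in both lines, with siOC2 in PC3 and, at the size of 12 and 8 reads, with Flag-OC2 in hypoxic LNCaP cells. The difference between the lines was not tested.

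The neighbouring genes of the system were read from 7 lists, by the same fold and P limits in limma, with Benjamini-Hochberg adjusted p over all genes tested. The lists were fixed with earlier results of these data known, so these values are a description too. For each contrast, the share called over all genes is the one given above. In LNCaP, VTN, FOSL1, FOSB, ETV4, COL5A1 and ADAMTS7, among others, passed the filter only with the Flag-OC2 libraries, in which they were high. MMP24 and TNC passed it there only with the hypoxic libraries, in which they were high, and SPARC only with the hypoxic empty vector libraries. ADAM28 and PRSS8 passed it in PC3 only with the siOC2 libraries, in which they were high. The adjusted p of all these genes are a description. Among the other MMPs, 0 of 7 tested were called in PC3 with siOC2 or with hypoxia, and 0 of 7 had an unadjusted P under 0.05. Of all 12214 genes, 1124 had such a P with siOC2 in normoxia, 1482 with siOC2 in hypoxia and 901 with hypoxia. The gelatinase MMP9, named here after its values were seen, was at 2.86 and 3.06 RPKM with siCtrl in normoxia and at 9.415 and 10.3 RPKM in hypoxia. With siOC2 in hypoxia it was at 2.67 RPKM for siRNA1 and 15.1 RPKM for siRNA2. Its log2 fold change with hypoxia was 1.70 ± 0.78 (adjusted p = 0.70). In LNCaP, MMP11 was higher with Flag-OC2 in hypoxia (1.47 ± 0.32, adjusted p = 0.0237) and MMP24 with hypoxia (1.34 ± 0.22, adjusted p = 0.00307).

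Of the plasminogen system, 12 genes were tested in PC3. With siOC2 in hypoxia, S100A10, a part of a plasminogen receptor, was called lower (-1.34 ± 0.29, adjusted p = 0.128). With hypoxia 4 of 12 were called higher, led by the tissue activator PLAT (2.08 ± 0.74, adjusted p = 0.55), LRP1, a receptor that clears protease and inhibitor complexes (1.41 ± 0.27, adjusted p = 0.127), and ENO1, a glycolytic enzyme that binds plasminogen (1.16 ± 0.20, adjusted p = 0.0828). None of these named PC3 genes reached an adjusted p under 0.05. In LNCaP, VTN, the matrix protein vitronectin that binds the urokinase receptor, was higher with Flag-OC2 in normoxia (2.33 ± 0.35, adjusted p = 0.00967) and in hypoxia (2.87 ± 0.35, adjusted p = 0.00261). VTN was at 0.0513 to 0.1865 RPKM with empty vector and passed the filter only through Flag-OC2 in hypoxia (1.51 and 1.755 RPKM). With hypoxia 4 of 11 were called higher and 1 lower, among them SERPINE2 (3.04 ± 0.27, adjusted p = 0.000185), S100A10 (2.37 ± 0.19, adjusted p = 0.000128) and LRP1 (2.18 ± 0.25, adjusted p = 0.000656).

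Of the ADAM and ADAMTS proteases, PC3 cells had 2 of 14 called higher and 1 lower with siOC2 in hypoxia, ADAM28 (1.84 ± 0.51, adjusted p = 0.201), ADAMTS1 (1.16 ± 0.43, adjusted p = 0.326) and ADAM12 (-1.46 ± 0.62, adjusted p = 0.40). In LNCaP, ADAM28 (3.31 ± 0.36, adjusted p = 0.000501) and ADAMTS1 (1.91 ± 0.10, adjusted p = 1.96e-05) were higher with hypoxia, and with Flag-OC2 in hypoxia ADAMTS7 was higher (1.81 ± 0.25, adjusted p = 0.00426) and ADAMTS1 lower (-1.06 ± 0.10, adjusted p = 0.000782). Of the further MMP inhibitors and inducers, TFPI2 was called higher with siOC2 in PC3 in normoxia (1.07 ± 0.39, adjusted p = 0.453) and CD44 lower in hypoxia (-1.03 ± 0.44, adjusted p = 0.409). CD44 in hypoxia was at 661 and 526 RPKM with siCtrl, 171 RPKM with siRNA1 and 488 RPKM with siRNA2. ADAM12 there was lower with siRNA2 (4.82 RPKM) than with siRNA1 (13.0 RPKM). Of the pericellular serine proteases and their inhibitors, SPINT1 was called higher with siOC2 in normoxia (1.2 ± 0.31, adjusted p = 0.265) while in hypoxia DPP4 was called lower (-2.18 ± 0.78, adjusted p = 0.314) and PRSS8 higher (1.43 ± 0.59, adjusted p = 0.381). In hypoxic PC3 cells DPP4 was at 1.82 and 2.86 RPKM with siCtrl, 0.187 RPKM with siRNA1 and 0.866 RPKM with siRNA2. DPP4 was lower with Flag-OC2 in hypoxic LNCaP cells (-1.85 ± 0.33, adjusted p = 0.0131).

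The AP-1 and ETS factors, which bind MMP and urokinase promoters, were read in LNCaP cells with Flag-OC2. Of 14 genes, 5 were called higher in normoxia, beside 2.81% of all genes, and 4 in hypoxia, beside 3.7%. The median log2 fold change over the list was 0.61 and 0.60 beside -0.08 and -0.01 over all genes. FOSL1 was higher by 4.81 ± 0.40 in normoxia (adjusted p = 0.000641) and 3.64 ± 0.40 in hypoxia (adjusted p = 0.00183), FOSB by 4.38 ± 0.23 (adjusted p = 6.01e-05) and 2.48 ± 0.23 (adjusted p = 0.000795), and ETV4 by 3.38 ± 0.37 (adjusted p = 0.00247) and 4.48 ± 0.37 (adjusted p = 0.000455). With empty vector FOSL1 was at 0.139 to 0.396 RPKM, FOSB at 0.324 to 0.703 RPKM and ETV4 at 0.0127 to 0.148 RPKM. These genes passed the filter only through Flag-OC2 libraries, so their adjusted p, and the counts and medians of the list that include them, are a description. In PC3, JUNB was called higher with siOC2 in normoxia (1.43 ± 0.35, adjusted p = 0.237) and hypoxia (1.17 ± 0.35, adjusted p = 0.237), while FOSL1 (-1.65 ± 0.43, adjusted p = 0.177) and ELF3 (-1.61 ± 0.36, adjusted p = 0.128) were called lower in hypoxia. There, FOSL1 was at 281.5 and 287 RPKM with siCtrl, 55.6 RPKM with siRNA1 and 148 RPKM with siRNA2. ELF3 was at 1.94 RPKM with siRNA1 and 1.93 RPKM with siRNA2.

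The matrix proteins on which these enzymes act had 2 of 20 genes called lower with siOC2 in PC3 in normoxia and 5 of 20 in hypoxia, and 0 higher in both. Their median log2 fold change was -0.34 and -0.64, beside 0.13 and -0.03 over all genes. The basement membrane genes COL4A1 (-1.46 ± 0.41, adjusted p = 0.307) and LAMA5 (-1.05 ± 0.43, adjusted p = 0.511) led in normoxia, and COL7A1 (-1.73 ± 0.63, adjusted p = 0.317) in hypoxia. COL7A1 in hypoxia was at 4.88 and 4.15 RPKM with siCtrl, 0.781 RPKM with siRNA1 and 2.07 RPKM with siRNA2. With hypoxia 3 of 20 were called higher in PC3, COL6A1 (1.61 ± 0.35, adjusted p = 0.185), COL17A1 (1.54 ± 0.47, adjusted p = 0.428) and LAMA3 (1.45 ± 0.61, adjusted p = 0.642), and 1 lower. In LNCaP, hypoxia called 7 of 14 higher, led by FN1 (2.88 ± 0.12, adjusted p = 8e-06), THBS1 (2.83 ± 0.19, adjusted p = 5.16e-05) and TNC (2.48 ± 0.38, adjusted p = 0.00239). TNC was at 0.136 to 0.42 RPKM in the normoxic libraries and passed the filter only through the hypoxic ones. With Flag-OC2 in hypoxia 2 of 14 were called higher, LAMB1 (1.99 ± 0.37, adjusted p = 0.0144) and COL5A1 (1.54 ± 0.22, adjusted p = 0.00504), and 2 lower, with SPARC the larger (-1.78 ± 0.46, adjusted p = 0.0436). SPARC reached 1 RPKM only with empty vector in hypoxia (1.23 and 1.04 RPKM), so its adjusted p is a description.

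The genes most like the widest member were sought over the 8 libraries of each line, as a description over libraries that share groups. MMP10 in PC3 (SD 1.735 on the log2 scale) was followed most closely by NFATC2 (Pearson r = 0.987), YIPF3 (0.982), MAP6 (0.973), GPR137 (0.972) and KISS1 (0.971). TIMP3 in LNCaP (SD 1.44) was followed by FCER2 (Pearson r = 0.998), TMEM88 (0.994), FGF19 (0.993), WI2-3308P17.2 (0.993) and SMCO1 (0.992).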

How the data were processed

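The 16 RNA-Seq libraries were grouped by the GEO labels into 4 groups of 2 in PC3 and 4 groups of 2 in LNCaP. The authors prepared stranded mRNA libraries and, per the submitters' processing notes, used STAR 2.4.2a and Cufflinks 2.1.1 with hg19 (GRCh37). The deposited values are RPKM per gene, 1 table per line, and raw read counts were not used here. Whether counting used strand is not given in the sources used here. Depth was read as relative depth from the steps of low RPKM.

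From these values log2(RPKM + 0.1) was computed for genes that reached 1 RPKM in 2 or more libraries of a line. limma 3.58.1 in R 4.3.3 fitted the 4 groups of each line together, with no covariate. Each line had 4 contrasts: ONECUT2 change in normoxia, ONECUT2 change in hypoxia, hypoxia in control cells, and their interaction. A call required a fold change over 2 and P under 0.05, and adjusted p-values are Benjamini-Hochberg over all genes tested. The fit was tested on simulated data.

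The members and lists were chosen with earlier results of these data known. Named genes are the 10 members, ONECUT2, overlapping genes, at most the 3 called genes of largest change per list and contrast, and the 5 genes most like the most variable member of each line. Exceptions are named as such. Alternatives were another pseudocount, other filters, upper-quartile scaling, a replicate block, siRNA identity as a block (added after seeing the data), separate fits, adjusted p, lone zeros as missing and leaving out each library.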

Additional observations from a re-analysis of the deposited data

Results flagged for a closer look

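MMP10 in PC3 moved in opposite directions with hypoxia in the siCtrl and siOC2 cells, in every library. Its mean went from 0.0328 to 0.17 RPKM with siCtrl and from 1.89 to 0.927 RPKM with siOC2, and the interaction in limma was -2.45 ± 1.30 (SE), not past the limits of a call, which it passed with siRNA identity as a block. The siRNA2 libraries alone went from 2.065 to 1.625 RPKM.

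MMP13 in control cells was higher with hypoxia in both PC3 libraries, with means of 0.0877 and 0.39 RPKM, and lower in both LNCaP libraries, with means of 1.01 and 0.738 RPKM. This difference between tables was not tested.

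MMP14 in LNCaP was higher with hypoxia with empty vector, with means of 0.101 and 0.263 RPKM, and lower with Flag-OC2, with means of 0.436 and 0.214 RPKM. In the fit without the filter the interaction was -1.57 ± 0.43. It did not enter the reported fit, in which the difference was not tested.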

How the results depend on the processing

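Of 796 member fold changes recomputed, 740 stayed within 1 SE, and 3 of the 34 with another sign had been over 1 SE from 0. Many of these fold changes could not move. Separate fits, the balanced blocks, other filters and leaving out a library outside the contrast keep the means compared. Of 308 counts of calls, 220 stayed within 1.5 times, which includes counts of 0 that stayed at 0. These totals therefore do not measure how stable the results are. Counts follow in the order ONECUT2 change in normoxia, in hypoxia, hypoxia in controls, interaction. The cause of the changes was not tested, except that a stricter filter removes the low members and leave-one-out has fewer libraries.

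In PC3, a pseudocount of 1 gave 2 members in normoxia, without MMP13. The filter of 5 RPKM gave 423 genes, 309 for hypoxia and 64 for the interaction, and 0 members for siOC2 at either oxygen level. No filter gave 282 for the interaction. A fit to the 2 groups compared gave 778 genes and 1 member for hypoxia. Adjusted p gave 1, 11, 33 and 0 genes, and 0 members for siOC2. Without single libraries the counts ran over 371 to 823, 564 to 2404, 308 to 628 and 47 to 1529 genes, and 2 to 4, 1 to 4, 0 to 1 and 0 to 3 members.

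In LNCaP, a pseudocount of 1 gave 178, 281, 594 and 216 genes and 0 members in normoxia. No filter gave 779, 1024 and, for the interaction, 760 genes, and 4, 3, 1 and 3 members. The filter of 5 RPKM gave 137, 197, 602 and 196 genes, and 1 and 0 members for Flag-OC2. Adjusted p gave 646, 1418, 3973 and 30 genes, and 2 members in hypoxia. Without single libraries the counts ran over 400 to 496, 512 to 690, 973 to 1159 and 368 to 582 genes, and 1 to 2, 1 to 2, 0 to 1 and 0 to 0 members.

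The replicate block gave 4, 2, 0 and 0 members in PC3 (TIMP3 added in normoxia) and 2, 1, 0 and 0 in LNCaP. Deviations of same-numbered libraries correlated at 0.618 for the siOC2 pair of PC3, whose number is the siRNA. For the other pairs the correlation was -0.186 to 0.076 in PC3 and -0.065 to 0.275 in LNCaP, and these numbers were not taken as pairs. Chosen after seeing the data, siRNA as a replicate block within siOC2 gave 1013, 1384, 753 and 380 genes and 4, 3, 0 and 3 members, with TIMP3 added in normoxia, MMP10 in hypoxia, and MMP10, PLAU and TIMP3 in the interaction. It takes the mean of these 2 siRNAs as fixed. Likewise chosen after seeing the data, a crossed replicate block gave 692, 1015, 514 and 121 genes in PC3. Also chosen after seeing the data, adjusted p with the replicate block gave 25, 102, 68 and 0 genes and 0 members for siOC2 in PC3, and in LNCaP 1096 genes and 2 members for Flag-OC2 in hypoxia, 3618 genes for hypoxia and 13 for the interaction. Adjusted p after upper-quartile scaling gave 25, 125, 52 and 0 genes and 0 members for siOC2 in PC3, and 652, 1432, 4038 and 27 genes and 2 members in hypoxia in LNCaP. Leaving out the 3 shallow PC3 libraries gave 360, 437, 233 and 37 genes, with log2 fold changes in hypoxia of 0.62 for MMP13, 2.90 for MMP10, -1.38 for TIMP3 (0.08 with all libraries) and 0.11 for PLAU (-0.58 with all), and a TIMP3 interaction of -0.12 (1.22 with all).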
